A study of Mus musculus with 14 samples.

Results

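The genes described here are 8 clock genes, Arntl (encoding Bmal1), Npas2, Clock, Cry1, Cry2, Nfil3, Rora and Bhlhe40, chosen by an exact match of the gene name in the deposited tables. All 8 were found among 54532 genes, and all 8 passed the filter on low counts, which left 15458 genes. RNA-seq of skeletal muscle was carried out on 14 libraries of male FVB/N mice. EC-Myc OE mice carry Cdh5-tTA, a transactivator driven by an endothelial promoter, and Tet-O-Myc, a human c-Myc transgene on the Y chromosome that is held silent by doxycycline. The control littermates (CT) carry Tet-O-Myc and lack the transactivator, and in both genotypes doxycycline diet was withdrawn at 4 to 6 weeks of age. Mice then received control diet (CTD) or the high-fat western diet (WD), for 20 weeks by the labels. For the muscle transcriptome the study's text gives a shorter time on WD. The design gave 3 CT-CTD, 3 CT-WD, 4 OE-CTD and 4 OE-WD libraries. Whole muscle was sequenced, so that most RNA came from muscle fibres rather than from the endothelial cells that carry the active transgene. The labels give neither the hour at which tissue was taken nor which of the muscles, soleus or gastrocnemius, a library came from. Group sizes in the study's text follow diet rather than genotype, as they would here if OE-CTD and CT-WD each bore the other's name, and groups here follow the labels. Under that exchange, the values of CT-WD against CT-CTD would change places with those of OE-CTD against CT-CTD, and those of OE-WD against CT-WD with those of OE-WD against OE-CTD, so that 0 of these genes would pass between the genotypes on WD, and the genotype calls of Arntl, Rora and Bhlhe40 given below would be calls between diets. Zbtb16, the single gene of all those tested that was called between OE-WD and OE-CTD in edgeR (log2 fold change 1.23, adjusted p = 0.00559, from 1.63e-11 in DESeq2 to 1 in edgeR over the 24 alternatives), had a log2 fold change of -0.53 between OE-WD and CT-WD. The study's text names Zbtb16 among the genes raised in OE-WD relative to CT-WD. The group sizes, this direction of Zbtb16 and the levels of Lep given below leave the labels in doubt. Each of them follows the study's text under the exchange and not under the labels as given. For Lep, RNA of muscle is set there beside leptin in blood. Which names are right was not settled, and each reading of a difference as one of genotype or of diet holds only if the labels are right.

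In the circadian clock, Bmal1 pairs with Clock or Npas2 and activates genes through E-box elements, among them the Per and Cry genes, whose proteins then repress the pair. A second loop sets the rhythm of Arntl itself, with Ror proteins activating and Rev-erb proteins (Nr1d1, Nr1d2) repressing it through a shared element. In skeletal muscle, Arntl transcripts peak in opposite phase to Dbp and the Rev-erb genes, so that the hour of sampling sets the ratio between them.

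The summed counts per library ran from 21833839 to 28519159. The skeletal muscle genes Ckm and Acta1 were present in every library, and the 7 genes that define skeletal muscle summed to between 73875 and 103617 CPM (reads of a gene as a share of its library, with totals normalized by the TMM method of edgeR). Levels of a gene in different libraries are given in CPM, listed in the order of the replicate numbers, and levels of different genes in FPKM, which divides by gene length. In FPKM the order of the mean levels over the 14 libraries was Bhlhe40 (33.5 ± 12, SD), Nfil3 (26.2 ± 29.8), Cry2 (11.6 ± 1.06), Rora (6.92 ± 1.17), Cry1 (5.98 ± 0.458), Arntl (2.13 ± 1.10), Clock (1.53 ± 0.175) and Npas2 (0.102 ± 0.0458). The spread of Nfil3 came from CT-WD 2 and CT-WD 3 and covered the means of all other genes, so that its place in this order was not fixed, and Rora and Cry1 or Arntl and Clock did not differ beyond their spread either. Npas2 was counted with 4 to 20 reads per library, and its fold changes had the widest errors of the 8 genes.

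CT-WD 2 and CT-WD 3 stood apart from CT-WD 1 in Arntl, Nfil3 and Bhlhe40, and for Arntl, Nfil3, Rora, Bhlhe40 and the clock, target and glucocorticoid lists on WD results are also given without 1 or more of the CT-WD libraries. CT-WD 1 was itself apart in genes of other cells, with summed CPM in replicate order of 478, 84.1, 107 for tendon, 92.8, 8.94, 11.2 for epidermis, 141, 70.9, 57.8 for macrophages and 447, 382, 384 for endothelial cells. The number of genes called over the genome moved with these libraries too. Between OE-WD and CT-WD, edgeR called 9.47% of all genes without CT-WD 1, 0.0818% without CT-WD 2 and 0.0441% without CT-WD 3, against 0.725% with all libraries. What sets these libraries apart in the clock genes was not tested.

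The codes in the labels share a number among OE-CTD 1 to 3 and among all 4 OE-WD libraries, and no number is shared among CT libraries. Whether a shared number means the same animal or cage is not given. Counts of pairs of libraries in a group were compared by chi-square per degree of freedom, which is near 1 where only sampling of reads differs. It was 7.50 to 10.2 among OE-CTD 1 to 3 and 8.17 to 14.5 among OE-WD 1 to 3, against 16.1 to 48.1 among libraries of a CT group. OE-WD 4, which shares its number, differed from the other OE-WD libraries by 37.2 to 40.4, and OE-CTD 4, which does not, from the other OE-CTD libraries by 35.6 to 41.2. With libraries of a shared number summed, an alternative chosen after seeing the data, OE-CTD is 2 samples and OE-WD is 1, and 0 of the 8 genes passed the adjusted level in edgeR in any comparison. In that fit the spread of OE-WD comes from the other groups. Samples are also fewer, so that the lost calls do not show whether these libraries are independent. The genotype calls described here hold only if these libraries are independent and the labels are right.

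**Figure D1:**
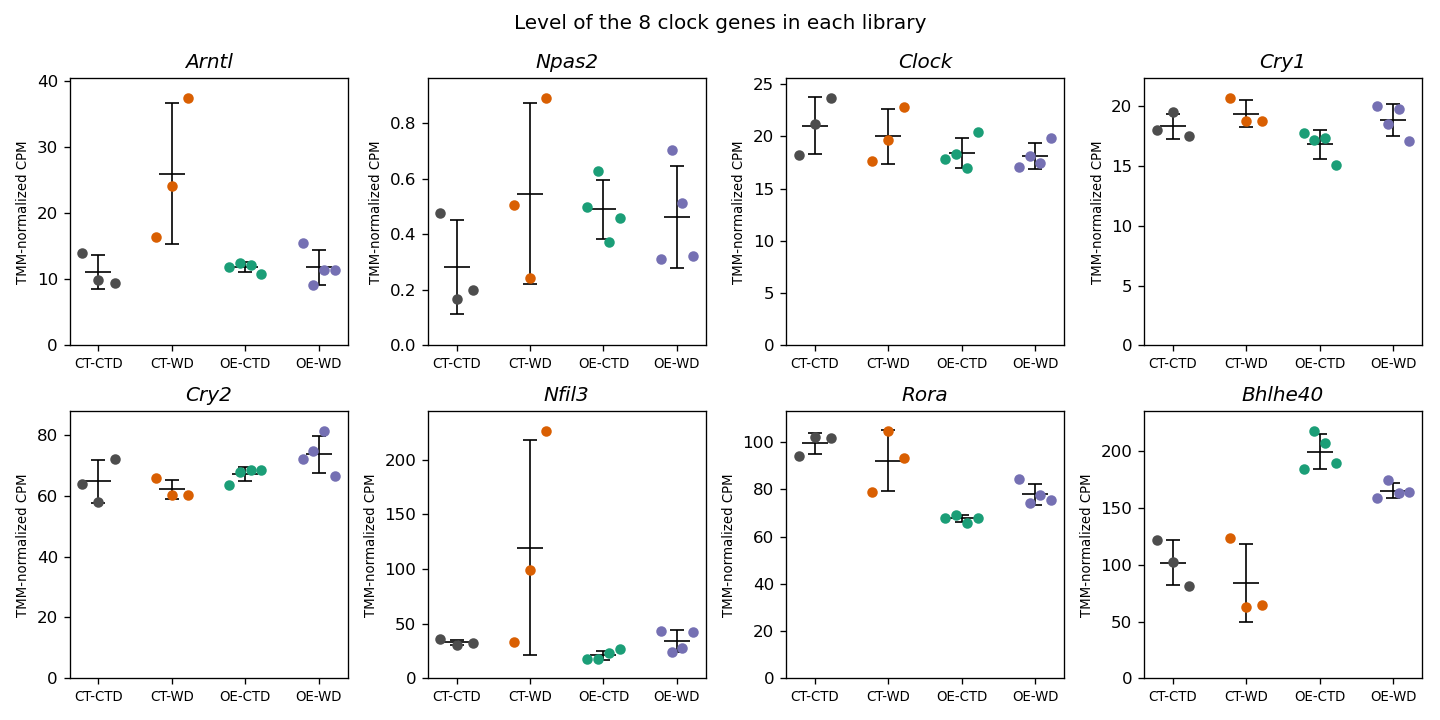
TMM-normalized CPM of each of the 8 clock genes in each library (points) by group, with the mean and SD (bars). Arntl and Nfil3 are highest in CT-WD 3 and then CT-WD 2, and all 8 OE libraries lie above all 6 CT libraries for Bhlhe40.

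Among the activators, Arntl was the gene that separated CT-WD from the other groups. Arntl (ENSMUSG00000055116, chromosome 7 of GRCm38, 113207465 to 113314126, plus strand) had CPM of 14, 9.92, 9.37 (CT-CTD), 16.3, 24.1, 37.3 (CT-WD), 11.8, 12.5, 12.2, 10.8 (OE-CTD) and 15.4, 9.08, 11.3, 11.4 (OE-WD). All CT-WD libraries were above all libraries of the other groups, although CT-WD 1 exceeded the highest of these, OE-WD 1, by less than 1 CPM. Between OE-WD and CT-WD, Arntl was lower by a log2 fold change of -1.13 (SE 0.228, 95% CI -1.62 to -0.65), which passed the test with an adjusted p of 0.0350 in edgeR. The call was lost on leaving out CT-WD 2, CT-WD 3, OE-WD 2, OE-WD 3 or OE-WD 4, with adjusted p in edgeR of 0.0951, 0.191, 0.126, 0.0999 and 0.0883. It was also lost without OE-CTD 1, OE-CTD 2 or OE-CTD 3, with adjusted p in edgeR of 0.0550, 0.0550 and 0.0529. Over the 24 alternatives the adjusted p ran from 7.39e-05, in edgeR without a filter on low counts, to 1, in edgeR with libraries of a shared number summed, where the log2 fold change was -1.14 (SE 0.391), and with the replicate number as a block it was 0.276 in edgeR. The log2 fold change was -0.77 without CT-WD 3 and -1.38 without CT-WD 1.

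The diet comparison within CT gave the reverse direction for Arntl, a log2 fold change of 1.22 (SE 0.249, 95% CI 0.69 to 1.75) that did not pass adjustment in edgeR (adjusted p = 0.277). Without CT-WD 1 the log2 fold change was 1.47 and the adjusted p in edgeR was 0.00959, and without CT-WD 3 it was 0.86 with an adjusted p of 0.761. Over all 24 alternatives the adjusted p of edgeR, DESeq2 and limma ran from 0.00033 to 0.981. With the replicate number as a block the log2 fold change was 1.16 (adjusted p = 0.155 in edgeR). Between OE-WD and OE-CTD the log2 fold change of Arntl was 0.00 (95% CI -0.47 to 0.46), and between OE-CTD and CT-CTD it was 0.10 (95% CI -0.40 to 0.60). The difference between the diet responses of the genotypes, tested as an interaction, was -1.23 (SE 0.329, 95% CI -1.93 to -0.53) with an adjusted p of 0.825 in edgeR.

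The partners of Bmal1 showed no such pattern. Clock (ENSMUSG00000029238, chromosome 5, 76209868 to 76304792, minus strand) lay between 17.0 and 23.7 CPM in all 14 libraries, and the groups overlapped in every comparison. Its largest difference was a log2 fold change of -0.19 (95% CI -0.43 to 0.05) between OE-CTD and CT-CTD. Npas2 (ENSMUSG00000026077, chromosome 1, 39193731 to 39363236, plus strand) ran from 0.167 to 0.889 CPM, with overlapping groups. Its log2 fold change between CT-WD and CT-CTD was 0.95 with a 95% CI of -0.23 to 2.13, which includes both 0 and the change seen in Arntl. Neither gene passed the test in any comparison under the main settings or under any alternative.

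Among the cryptochromes, which repress the activators, Cry1 (ENSMUSG00000020038, chromosome 10, 85131700 to 85185064, minus strand) ran from 15.1 to 20.7 CPM. Its mean was 18.3 ± 1.04 CPM (SD, n = 3) in CT-CTD, 19.4 ± 1.11 (n = 3) in CT-WD, 16.8 ± 1.21 (n = 4) in OE-CTD and 18.8 ± 1.34 (n = 4) in OE-WD. The groups overlapped in every comparison, and all 4 pairwise confidence intervals of Cry1 included 0. Cry2 (ENSMUSG00000068742, chromosome 2, 92403646 to 92434043, minus strand) had CPM of 65.7, 60.3, 60.4 (CT-WD) and 72.0, 74.6, 81.2, 66.5 (OE-WD). The 4 OE-WD libraries lay above the 3 CT-WD libraries, with a log2 fold change of 0.24 (SE 0.0874, 95% CI 0.06 to 0.43) that did not pass adjustment in edgeR (adjusted p = 0.177). In CT-CTD, Cry2 ran from 57.9 to 72.2 CPM and in OE-CTD from 63.6 to 68.4 CPM, with overlap.

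Nfil3, a bZIP repressor that binds the same D-box elements as Dbp, varied most among the 8 genes. Nfil3 (ENSMUSG00000056749, chromosome 13, 52967209 to 52981073, minus strand) had CPM of 35.6, 30.6, 32.6 (CT-CTD), 33.2, 99.4, 226 (CT-WD), 17.6, 17.6, 22.9, 26.4 (OE-CTD) and 43.4, 24.0, 27.3, 42.7 (OE-WD). The high level of CT-WD came from CT-WD 2 and CT-WD 3, while CT-WD 1 lay among the CT-CTD libraries. OE-CTD lay below CT-CTD without overlap, whereas OE-WD overlapped with CT-WD. Between OE-WD and CT-WD the log2 fold change was -1.80 (SE 0.409, 95% CI -2.67 to -0.93), just short of the threshold in edgeR (adjusted p = 0.0562). Without CT-WD 1 it was -2.25 with an adjusted p of 0.000564 in edgeR, and without CT-WD 3 it was -0.94 with an adjusted p of 0.325. Over the 24 alternatives the adjusted p of edgeR, DESeq2 and limma ran from 2.52e-05 to 1. The log2 fold change was, for CT-WD against CT-CTD, 1.86 (SE 0.451, 95% CI 0.90 to 2.82, adjusted p = 0.394 in edgeR). It was 2.31 without CT-WD 1 (adjusted p = 0.00545 in edgeR) and 1.01 without CT-WD 3 (adjusted p = 0.890), within a range of 0.00032 to 0.981 over the alternatives. The log2 fold change between OE-CTD and CT-CTD was -0.65 (95% CI -1.53 to 0.24, adjusted p = 0.502 in edgeR, from 0.0304 with these groups alone to 0.886 over the alternatives), and that between OE-WD and OE-CTD was 0.71 (95% CI -0.12 to 1.53).

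Rora, the gene of an activator of Arntl, was, by the labels, lower in OE than in CT on control diet. Rora (ENSMUSG00000032238, chromosome 9, 68653786 to 69388246, plus strand) had CPM of 94.4, 102, 102 (CT-CTD), 78.9, 105, 93.2 (CT-WD), 67.9, 69.1, 65.9, 68.1 (OE-CTD) and 84.4, 74.2, 77.5, 75.7 (OE-WD). On control diet the genotypes were apart by more than 25 CPM, and on WD they overlapped at CT-WD 1 and OE-WD 1. The log2 fold change between OE-CTD and CT-CTD was -0.55 (SE 0.0872, 95% CI -0.74 to -0.37), with an adjusted p of 0.00617 in edgeR. All 14 fits that left out a single library retained this call, with adjusted p in edgeR from 0.00125 to 0.0333, and over all 24 alternatives it ran from 4.03e-06 in DESeq2 to 0.231. The call was lost in edgeR with the replicate block (adjusted p = 0.0848) and with libraries of a shared number summed (log2 fold change -0.55, SE 0.130, adjusted p = 0.231). On WD the change between genotypes was -0.24 on the log2 scale (95% CI -0.43 to -0.06, adjusted p = 0.178 in edgeR), and without CT-WD 1 it was -0.35 with an adjusted p of 0.0179. Over the 24 alternatives that adjusted p ran from 0.0179 to 1 in edgeR, and it was 0.575 without CT-WD 2. OE-WD lay above OE-CTD in all 4 libraries, by a log2 fold change of 0.20 (95% CI 0.03 to 0.37, adjusted p = 1 in edgeR). The interaction of diet and genotype was 0.31 for Rora (SE 0.124, 95% CI 0.05 to 0.57, adjusted p = 0.834 in edgeR).

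Bhlhe40, a repressor that competes for E-boxes and is itself an E-box target, was, by the labels, higher in OE on both diets. Bhlhe40 (ENSMUSG00000030103, chromosome 6, 108660629 to 108666925, plus strand) had CPM of 121, 102, 81.7 (CT-CTD), 124, 63.1, 64.9 (CT-WD), 185, 218, 207, 190 (OE-CTD) and 159, 175, 164, 165 (OE-WD). The lowest OE library, OE-WD 1, was above the highest CT library, CT-WD 1. The log2 fold change was 0.97 (SE 0.193, 95% CI 0.56 to 1.38) between OE-CTD and CT-CTD, with an adjusted p of 0.0166 in edgeR. It was 0.98 (SE 0.193, 95% CI 0.56 to 1.39) between OE-WD and CT-WD, with an adjusted p of 0.0325 in edgeR. The comparisons share no libraries, and the interaction was 0.00 (95% CI -0.56 to 0.57).

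Both calls of Bhlhe40 depended on single libraries, though its direction did not. On control diet the call was lost without CT-CTD 2, CT-CTD 3, OE-CTD 2 or OE-CTD 3, with adjusted p in edgeR of 0.0732, 0.103, 0.0567 and 0.0529. On WD it was lost without CT-WD 2, CT-WD 3, OE-WD 2, OE-WD 3 or OE-WD 4, with adjusted p in edgeR of 0.141, 0.169, 0.110, 0.0892 and 0.0875. It was lost there too without OE-CTD 1, OE-CTD 2 or OE-CTD 3, with adjusted p in edgeR of 0.0520, 0.0519 and 0.0505. Over the 24 alternatives the adjusted p of edgeR, DESeq2 and limma ran from 2.09e-05 to 0.334 on control diet and from 4.21e-05 to 1 on WD. With libraries of a shared number summed the log2 fold change was 0.95 (SE 0.270) on control diet and 0.98 (SE 0.329) on WD. Both calls were lost with the replicate number as a block in edgeR, with an adjusted p of 0.0896 on control diet and 0.241 on WD. Between CT-WD and CT-CTD the log2 fold change of Bhlhe40 was -0.28 (95% CI -0.71 to 0.15), and it was -0.67 without CT-WD 1, with an adjusted p of 0.0532 in edgeR within a range of 0.0532 to 0.995.

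**Figure D2:**
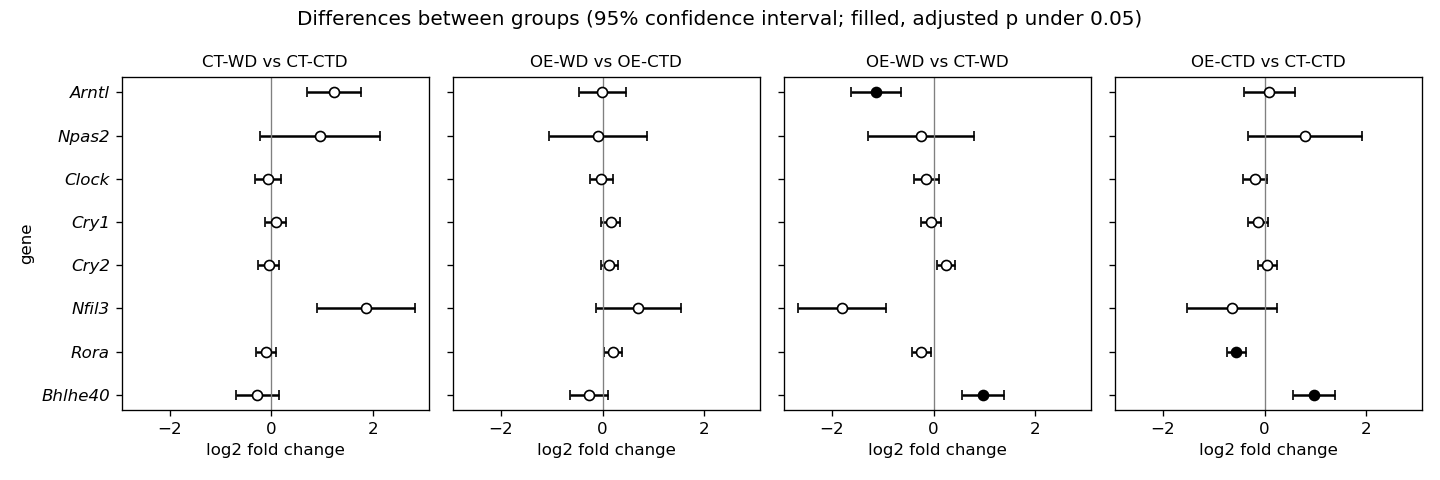
Log2 fold change (x axis) of each of the 8 clock genes in the 4 pairwise comparisons, with 95% confidence intervals; filled points have an adjusted p under 0.05 in edgeR. Filled are Arntl and Bhlhe40 in OE-WD against CT-WD, and Rora and Bhlhe40 in OE-CTD against CT-CTD.

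Counted over the 8 genes, 2 passed the adjusted level between OE-WD and CT-WD (Bhlhe40 higher, Arntl lower), against 0.725% of all genes tested, while DESeq2 called 3, limma 0 and edgeR on these groups alone 0. At an unadjusted p under 0.05 these were 5 of 8, Arntl, Nfil3, Rora, Bhlhe40 and Cry2, against 16.9% of all genes. Between OE-CTD and CT-CTD, 2 of 8 passed the adjusted level (Bhlhe40 higher, Rora lower), against 2.67% of all genes, and the same 2 genes passed the unadjusted level, against 15.9%, with 2 called in DESeq2 and in limma and 3 in edgeR on these groups alone. Between CT-WD and CT-CTD, 0 of 8 passed the adjusted level in edgeR, against 0.0% of all genes, 1 passed in DESeq2 (Arntl) and 0 in limma. At an unadjusted p, 2 of 8 passed there in edgeR (Arntl and Nfil3), against 7.28% of all genes. Between OE-WD and OE-CTD, 0 of 8 passed the adjusted level in edgeR, against 0.00647% of all genes, and 0 in DESeq2 and limma, while 1 of 8 (Rora) passed the unadjusted level, against 4.2%. In the interaction, 0 of 8 passed the adjusted level in edgeR, against 0.0%, and 0 in DESeq2 and limma, while 2 of 8 (Arntl and Rora) passed the unadjusted level, against 5.92%. For any difference among the 4 groups, 4 of 8 passed the adjusted level in edgeR, against 2.96% of all genes, and the same 4, Arntl, Nfil3, Rora and Bhlhe40, passed the unadjusted level, against 17.6%, with 4 called in DESeq2 and 2 in limma. Without CT-WD 3 this count was 2, against 1.96% of all genes, since Arntl (adjusted p = 0.0932 in edgeR) and Nfil3 (adjusted p = 0.0580) no longer passed. The median log2 fold change of the 8 genes was 0.01 between CT-WD and CT-CTD, 0.07 between OE-WD and OE-CTD, -0.19 between OE-WD and CT-WD and -0.04 between OE-CTD and CT-CTD, and over all genes these medians were 0.01, 0.00, 0.01 and 0.00.

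The name of the group, the Bmal1 phase, was compared with how the genes varied with Arntl over the 14 libraries. The permutation p-values are two-sided, come from 100000 resamples and were adjusted over all 15457 other genes tested. They treat the 14 libraries as interchangeable, without regard to group or shared code number, and hold only if the libraries are independent. Of 18 clock genes, the 7 others and 11 of the period phase, 1 passed the adjusted level, against 0.0647% of all genes, and 9 the unadjusted level, against 15.8%. Nfil3 varied with Arntl, with Pearson's r of 0.870 (permutation p = 0.001, adjusted p = 0.121) and Spearman's rho of 0.543 (permutation p = 0.0477, adjusted p = 0.711). Without CT-WD 2 and CT-WD 3, the libraries farthest from the median of Arntl, r was 0.264, so that the relation rested on these libraries. After subtraction of the group means r was 0.821, with CT-WD 2 and CT-WD 3 included. Bhlhe40 went against the name, with r of -0.611 (permutation p = 0.0186, adjusted p = 0.234) and rho of -0.310 (permutation p = 0.281, adjusted p = 0.880). Its r was 0.148 without these libraries, and in the genotype comparisons it moved with Nr1d1 and Ciart. For Npas2, Clock, Cry1, Cry2 and Rora, r was 0.319, 0.177, 0.296, -0.480 and 0.347, with permutation p-values of 0.272, 0.557, 0.296, 0.0848 and 0.234 and adjusted p of 0.597, 0.805, 0.618, 0.378 and 0.560. Their rho was 0.191, -0.196, 0.345, -0.495 and 0.213, with permutation p-values of 0.514, 0.503, 0.229, 0.0748 and 0.465 and adjusted p of 0.940, 0.938, 0.866, 0.750 and 0.927. Without CT-WD 2 and CT-WD 3 their r was 0.219, -0.623, 0.382, -0.136 and -0.121. The 8 genes are therefore described by their names and not as a single phase.

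**Figure D3:**
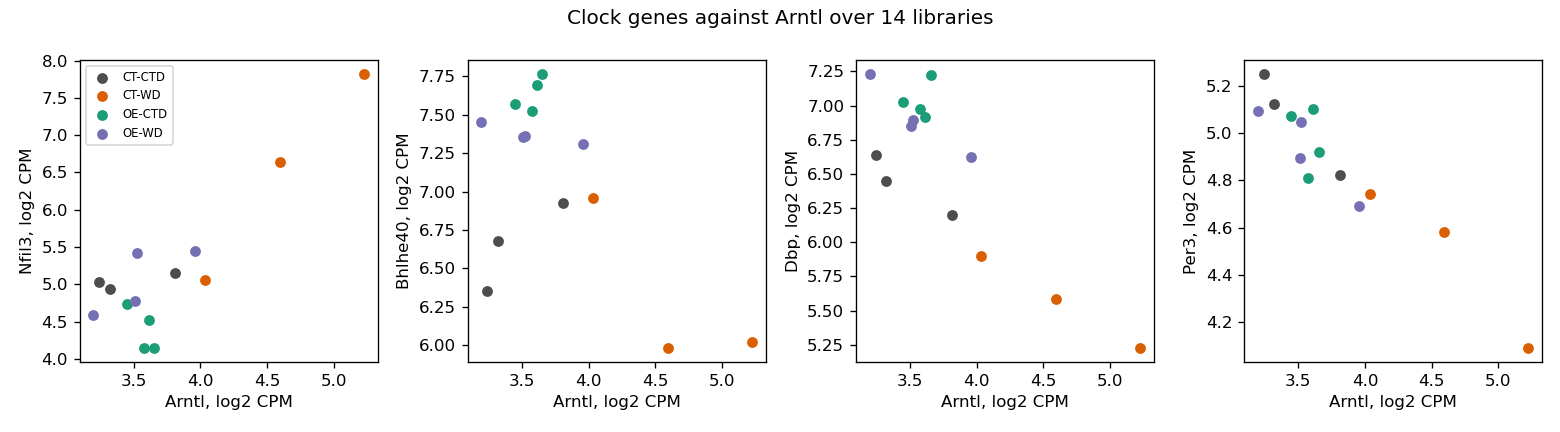
Log2 CPM of Nfil3, Bhlhe40, Dbp and Per3 (y axes) against log2 CPM of Arntl (x axes) in the 14 libraries, coloured by group. CT-WD 3 and CT-WD 2 are at the right of each panel, and Per3 declines along Arntl in the other libraries as well.

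Per3, a repressor of the period phase, had the closest relation to Arntl among these clock genes. It had CPM of 28.2, 34.8, 38.0 (CT-CTD), 26.7, 23.9, 16.9 (CT-WD), 28, 30.2, 34.3, 33.5 (OE-CTD) and 25.8, 34.1, 29.6, 33.0 (OE-WD). In every group except OE-CTD, the library with the most Arntl was the one with the least Per3. Pearson's r was -0.951 (permutation p = 1e-05, the smallest these resamples can give, adjusted p = 0.0258) and Spearman's rho was -0.864 (permutation p = 8e-05, adjusted p = 0.155). Without CT-WD 2 and CT-WD 3, r was -0.862, and after subtraction of the group means, with all libraries included, it was -0.908. For Dbp, an activator of D-box genes, r was -0.859 (permutation p = 0.00023, adjusted p = 0.0988) with rho of -0.644 (permutation p = 0.0152, adjusted p = 0.582). Its r was -0.553 without CT-WD 2 and CT-WD 3, and -0.900 after subtraction of the group means with all libraries included.

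The FPKM ratio of Arntl to Dbp, a description of where a library stands between these opposed genes, was 0.0757, 0.0453, 0.0374 (CT-CTD), 0.109, 0.200, 0.398 (CT-WD), 0.0375, 0.0333, 0.0401, 0.0330 (OE-CTD) and 0.0625, 0.0240, 0.0391, 0.0382 (OE-WD). The CT-WD libraries were all above the others, and OE-CTD had the narrowest spread. Since the labels do not give the hour of sampling, a difference in hour and a difference in clock gene level at a given hour cannot be told apart.

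Among 11779 named genes with a mean of at least 1 CPM, those most like Arntl over the 14 libraries included Pim3 (r = 0.943), Rasgrp2 (0.918), Gpr157 (0.914) and Trim63 (0.914). The genes least like it were Fam78a (r = -0.967), Pdp1 (-0.960), Per3 (-0.951), Akirin1 (-0.931) and Clcn1 (-0.928). Without CT-WD 2 and CT-WD 3 the r with Arntl was 0.699, 0.556, 0.863 and 0.719 for the first of these sets and -0.841, -0.843, -0.862, -0.605 and -0.798 for the second. Permutation p-values in both sets were between 1e-05 and 0.00021 and adjusted p between 0.0258 and 0.0984.

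Of the period-phase list, 11 of 12 genes were tested, and 4 rose between OE-WD and CT-WD and 0 fell, against 0.725% of all genes called. The 4 were Dbp (log2 fold change 1.32, adjusted p = 0.0032 in edgeR), Nr1d1 (1.32, 0.0193), Ciart (1.88, 0.0282) and Hlf (0.61, 0.0322), opposite to Arntl in the same libraries. Leaving out CT-WD 1 raised the count to 8, with 9.47% of all genes called, and leaving out CT-WD 2 or CT-WD 3 lowered it to 1, with 0.0818% and 0.0441% called. Dbp passed in all 14 fits without a single library, Nr1d1 in 11 and Ciart and Hlf in 9 each. Between OE-CTD and CT-CTD, where Arntl was level and 2.67% of all genes were called, Nr1d1 (log2 fold change 1.37, adjusted p = 0.00575 in edgeR) and Ciart (1.42, 0.0314) rose and Per2 fell by 0.58 on the log2 scale (adjusted p = 0.0324). The median log2 fold change of this list was 0.39 between OE-WD and CT-WD and 0.07 between OE-CTD and CT-CTD, against 0.01 and 0.00 over all genes. Of 27 tested clock kinases, ligases and cofactors, 0 passed the adjusted level in either genotype comparison in edgeR and 0 in limma, while DESeq2 called 0 on WD and 2 on control diet. At an unadjusted p, 4 and 3 of the 27 passed in edgeR, against 16.9% and 15.9% of all genes, and the smallest p-value on each diet was that of Nampt, with a log2 fold change of -0.32 on WD and -0.38 on control diet. Of 19 muscle genes described as targets of Bmal1 and Clock, 3 passed between OE-WD and CT-WD in edgeR against 0.725% of all genes (6 in DESeq2, 0 in limma), with Ucp3 (log2 fold change -1.21, adjusted p = 0.0276) and Pdk4 (-1.08, 0.0430) lower and Pdp1 (0.65, 0.0490) higher. Leaving out CT-WD 1 raised the count in edgeR to 8 beside the same 9.47% of all genes. Leaving out CT-WD 2 or CT-WD 3 lowered it to 0. At an unadjusted p, 8 and 7 passed in those fits, against 11.4% and 10% of all genes. On control diet, 4 of the 19 fell with genotype in edgeR against 2.67% of all genes called (6 called in DESeq2, 3 in limma), namely Ucp3, Mylk4, Tbc1d1 and Myod1.

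Markers of other cells were read beside the genotype differences of the 8 genes, because fewer cells of a type and less RNA per cell cannot be told apart in whole muscle. The 10 endothelial genes, of which Cdh5 had the highest mean over all libraries, summed to CPM of 361, 364, 381 (CT-CTD), 447, 382, 384 (CT-WD), 473, 479, 448, 426 (OE-CTD) and 481, 497, 506, 492 (OE-WD). OE lay above CT on each diet without overlap, as Bhlhe40 did, and none of the 10 was at 0 in all libraries. In edgeR, 1 of 10 rose in each genotype comparison, Cdh5 on WD (log2 fold change 0.46, adjusted p = 0.0322) and Tek on control diet (0.52, 0.0232), against 0.725% and 2.67% of all genes called. At an unadjusted p, 7 and 6 of 10 rose in edgeR, against 16.9% and 15.9% of all genes, DESeq2 called 4 and 2 and limma 1 and 1. The part of endothelial RNA in the differences of Bhlhe40 and Rora was not tested. Of 71 tested genes of slow and fast fibres, skeletal muscle, macrophages, adipocytes, blood, Schwann cells, tendon and epidermis, 0 passed the adjusted level in edgeR or limma in either genotype comparison. DESeq2 called 3 on WD and 5 on control diet, and at an unadjusted p edgeR gave 8 and 21, against 16.9% and 15.9% of all genes. On control diet, where Bhlhe40 and Rora were called, 7 of 10 macrophage genes rose at an unadjusted p (median log2 fold change 0.84) and 4 of 6 tendon genes (1.41). The tendon sums were 101 to 235 CPM in CT-CTD and 306 to 608 CPM in OE-CTD, without overlap. On WD, 0 of 10 macrophage and 1 of 6 tendon genes rose at an unadjusted p (median 0.10 and 1.30), with tendon sums of 301 to 845 CPM in OE-WD and of 84.1 to 478 CPM in CT-WD, which overlap. On each diet 4 of 10 slow fibre genes rose at an unadjusted p (median -0.02 on WD and 0.24 on control diet). The 9 adipocyte genes, of which Plin4 was the most abundant, summed to CPM of 1006, 605, 670 (CT-CTD), 795, 935, 841 (CT-WD), 545, 550, 671, 481 (OE-CTD) and 593, 619, 541, 645 (OE-WD). OE lay below CT on WD without overlap, and on control diet the genotypes overlapped. At an unadjusted p, 1 of 9 rose and 1 fell on WD and 1 rose and 2 fell on control diet, with median log2 fold changes of 0.61 and -0.32, so that the sum and the median differ in direction on WD. The 1 that rose on WD was Lep, with a log2 fold change of 2.55 (95% CI 0.95 to 4.16). Its groups did not overlap there (adjusted p = 0.114 in edgeR). The 1 that fell was Plin4, at -0.74 (adjusted p = 0.0799 in edgeR) with overlap. Mean Lep was 3.89 CPM in CT-CTD, 1.34 in CT-WD, 14.9 in OE-CTD and 8.18 in OE-WD. In the study's text systemic leptin is higher in CT-WD than in OE-WD, so that Lep bears on the doubt about the labels. That is a protein in blood, whereas Lep here is RNA of whole muscle, so that measure and tissue differ. Without CT-WD 1, 4 of the 9 adipocyte genes were called on WD in edgeR, against 9.47% of all genes. Their part in the differences of the clock genes was not tested.

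Glucocorticoid-responsive genes, which follow a hormone with a daily rhythm, had their highest sum in CT-WD 2 and CT-WD 3, as Arntl did, although Fkbp5 was highest in CT-CTD 3. In the list of 21 genes, of which 20 were tested and Pdk4 was the most abundant, the summed CPM was 5967, 8408, 8573 (CT-WD), between 3397 and 5544 (OE-WD), between 4707 and 5864 (CT-CTD) and between 3270 and 3562 (OE-CTD). OE-CTD lay below CT-CTD without overlap, while Arntl did not differ between them. Between CT-WD and CT-CTD 0 of 20 passed the adjusted level in edgeR and in limma and 3 in DESeq2, while 11 passed the unadjusted level in edgeR, against 7.28% of all genes. In edgeR 5 of 20 fell between OE-WD and CT-WD, against 0.725% of all genes called (8 in DESeq2, 0 in limma), with Trim63 at a log2 fold change of -1.43 (adjusted p = 0.0276) and Fkbp5 at -1.91 (adjusted p = 0.0399). Pdk4 is among these 5 and was also counted above among the targets of Bmal1 and Clock. Per1 is likewise both in this list and in the period-phase list. Between OE-CTD and CT-CTD 3 of 20 fell, against 2.67% of all genes called. On control diet 7 fell and 2 rose at an unadjusted p (median -0.26), against 15.9% of all genes in both directions. DESeq2 called 4 there and limma 1. The count on WD was 13 in edgeR on leaving out CT-WD 1, beside 9.47% of all genes. It was 0 on leaving out CT-WD 2 or CT-WD 3, beside 0.0818% and 0.0441%. At an unadjusted p, 13 and 10 passed in those fits, against 11.4% and 10% of all genes. Between OE-WD and OE-CTD, where Arntl was level, 1 of 20 was called, higher, in edgeR, DESeq2 and limma (Zbtb16), against 0.00647% of all genes. Their part in the differences of Arntl and Nfil3 was not tested.

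Promoter windows from RefSeq on GRCm38.p6, 300 bases around a gene's start, were matched for 7 of the 8 genes, all but Bhlhe40. They were searched on both strands for the E-box CACGTG, for TAGGTCA, the core of the element shared by Ror and Rev-erb proteins, for the D-box TTANGTAA, for the cAMP response element TGACGTCA and for the glucocorticoid element. The letters of the second were chosen after the windows of these genes had been read. Its presence in Arntl, in a single window of the gene, and in Nfil3, against 2.61% of all windows, is therefore given as a location and was not tested. The E-box was found in Cry1 alone, against 7.15% of all 32851 windows, and the D-box, the cAMP response element and the glucocorticoid element in 0 of the 7 genes, against 2.32%, 1.79% and 0.475% of windows. Since a gene can have more than 1 window, these shares and counts differ in unit and were not compared by a test. These matches are shown because they lie in genes whose levels were compared above, with the matched letters in capitals. Arntl is shown on the plus strand (chr7:113207531-113207557) and Cry1 (chr10:85185099-85185124) and Nfil3 (chr13:52981035-52981061, where the element reads on the opposite strand) on the minus strand. A match says only that the letters are present.
Arntl: aggcagaaagTAGGTCAgggacggagg
Nfil3: cgctcggaacTGACCTActaacacaca
Cry1: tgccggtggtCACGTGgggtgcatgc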

How the data were processed

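Per the labels, poly-T-selected RNA of skeletal muscle was sequenced in 14 libraries, each grouped by its label. The authors deposited counts of reads per gene, without normalization, and FPKM values, which divide counts by gene length and a library total. The submitters' processing notes name HISAT2 2.0.5, featureCounts 1.5.0-p3 and mm10, and the strand setting of the counting is not given in the sources used here. Of 54409 identifiers shared with GENCODE M21, 98.3% had the same position. Genes that overlap the 8 clock genes had mean levels under 1 CPM.

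Counts were tested with edgeR 4.0.16 (R 4.3.3) by the quasi-likelihood test, with TMM normalization, the filterByExpr filter and a model of 4 group means over all 14 libraries. Adjustment of p-values followed Benjamini and Hochberg over all 15458 genes within each comparison, and a gene was called at an adjusted p under 0.05 with no minimum fold. Log2 CPM used a prior count of 2. DESeq2 1.42.0, limma 3.58.1 on log2(FPKM + 1) and log2(FPKM + 0.1), other filters and scaling, a replicate block and the omission of each library were alternatives. The biological coefficient of variation was 17.0%. The test was checked on simulated counts. Permutation p-values of correlations were adjusted over all genes tested, in place of the clock genes alone. The members and lists were chosen with earlier results of these data known. Named genes are the 8 clock genes, up to 6 called genes per list, and the 5 highest and 5 lowest in correlation with Arntl, of which 1 is not reported here. Outside this rule, the text names Ckm and Acta1 as defining genes, Plin4 and Nr4a1 as the most abundant of their lists, Nampt for the smallest p-value of its list, and Lep and Jun as single genes in a count.

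Replicate numbers were checked as a pairing by correlating deviations from group means. In the CT groups r was 0.385, 0.123 and 0.203 for numbers 1 to 3, and from -0.296 to 0.142 for libraries of unlike numbers. In the OE groups it was 0.0711, 0.138, 0.142 and 0.338 for numbers 1 to 4, and from -0.239 to 0.116 for unlike numbers. Between genotypes, r for the same number was -0.230, -0.158 and -0.0647 on WD and 0.0465, -0.113 and -0.122 on control diet. For unlike numbers it ran there from -0.184 to 0.290 on WD and from -0.276 to 0.205 on control diet. The ranges overlap, and the check does not settle whether numbers pair the libraries. The block was kept as an alternative. The labels do not say whether libraries are separate animals, and codes that share a number within the OE groups make this uncertain there, so that p-values measure the spread between these libraries.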

Additional observations from a re-analysis of the deposited data

Results flagged for a closer look

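Cry2 in OE-CTD 1 was 63.6 CPM, apart from OE-CTD 2 to 4 at 67.7, 68.3 and 68.4 CPM. Its gap to the nearest of these was 0.848 of the group's range, above Dixon's critical value for 4 samples. Of the 16 groups of 4 examined over the 8 genes, about 1 in 20 would pass this rule by chance.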

How the results depend on the processing

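Counts of the 8 genes called depended on the setting. Between CT-WD and CT-CTD, 0 in edgeR became 1 in DESeq2 and 2 without a filter on low counts, and ran from 0 to 2 over omissions of a single library. Between OE-WD and CT-WD, 2 became 3 in DESeq2 and without a filter, 0 in limma on log2(FPKM + 1), with and without a filter, and on log2(FPKM + 0.1), 0 with the 2 groups alone, 0 without OE-CTD 4 and OE-WD 4 (an omission chosen after seeing the data, for their low scaling factors), and 0 to 4 over single omissions. Between OE-CTD and CT-CTD, 2 became 3 with these groups alone (Nfil3), 1 in limma without a filter and 1 to 2 over single omissions. The interaction went from 0 to 1 without a filter. For any difference, 4 became 2 on log2(FPKM + 1), 2 on log2(FPKM + 0.1), 1 in limma without a filter, and 2 to 4 over single omissions. Smaller samples and the number of genes tested differ between these settings by construction; other causes were not tested.

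With the replicate number as a block, 0 of the 8 were called between OE-WD and CT-WD and 0 between OE-CTD and CT-CTD, where libraries share only a number, and the block changed no other call of the 8.

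Sign changes were confined to differences that had not passed the test. Over single omissions, Clock ran from -0.18 to 0.0212 between CT-WD and CT-CTD, from -0.0669 to 0.0321 between OE-WD and OE-CTD and from -0.0429 to 0.16 in the interaction, and Cry2 from -0.13 to 0.028 between CT-WD and CT-CTD and from -0.0222 to 0.14 between OE-CTD and CT-CTD. Arntl ran from -0.16 to 0.11 between OE-WD and OE-CTD and from -0.0121 to 0.29 between OE-CTD and CT-CTD. Npas2 ran from -0.37 to 0.0678 between OE-WD and OE-CTD (0.0238 without OE-CTD 4 and OE-WD 4) and from -0.57 to 0.28 between OE-WD and CT-WD. Cry1 ran from -0.0735 to 0.00545 between OE-WD and CT-WD (0.00200 with the replicate block), and Bhlhe40 from -0.17 to 0.40 in the interaction (-0.018 without OE-CTD 4 and OE-WD 4). Without CT-WD 2 and CT-WD 3, the r of Arntl was -0.623 with Clock, -0.121 with Rora and 0.148 with Bhlhe40; the cause was not tested.

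With libraries of a shared code number summed, an alternative chosen after seeing the data, 0 of the 8 were called in every comparison, where 2 and 2 had been called between the genotypes on WD and control diet and 4 for any difference; the log2 fold change of Arntl between OE-WD and OE-CTD was then 0.0285.

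Counts over all genes moved more. With these libraries summed, 112 became 0 between OE-WD and CT-WD, 413 became 1 between OE-CTD and CT-CTD, and 457 became 0 for any difference. Between CT-WD and CT-CTD, 0 became 35 in DESeq2, 93 without a filter, 13 with the block and 0 to 42 over single omissions. Between OE-WD and CT-WD, 112 became 573, 560, 1, 23 on log2(FPKM + 1), 4 with the 2 groups alone and 4 to 1499. Between OE-CTD and CT-CTD, 413 became 799, 760, 14, 202, 596 and 77 to 615. Npas2 had 4 to 20 reads per library; the effect of depth and of the number of libraries was not tested.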

Other observations

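Immediate-early genes, which are transcribed within minutes of a stimulus, were higher in CT-WD than in CT-CTD in edgeR at the unadjusted level alone. Of 17 genes, 13 were higher in CT-WD than in CT-CTD at an unadjusted p under 0.05 in edgeR, against 7.28% of all genes in both directions, while 0 passed the adjusted level in edgeR or limma and 1 in DESeq2. The unadjusted count was 11 without CT-WD 1, 14 without CT-WD 2 and 9 without CT-WD 3, against 12.1%, 7.39% and 5.08% of all genes. Their summed CPM was 416, 465, 514 (CT-CTD) and 741, 625, 1297 (CT-WD) in replicate order, with Nr4a1 the most abundant. Between OE-CTD and CT-CTD, where Bhlhe40 and Rora were called, 3 of 17 passed the adjusted level in edgeR, all higher (Junb, Egr3 and Ier2), against 2.67% of all genes, and 11 the unadjusted level (10 higher and 1, Jun, lower), against 15.9%; DESeq2 called 7 and limma 2. CT-WD 3, which was highest in Arntl and Nfil3, was also highest here.

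Mitochondrial transcripts made up 14.9% of the counts in OE-CTD 4 and 14.5% in OE-WD 4, and between 9.66% and 12.8% in the other libraries.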
